A study of Mus musculus with 12 samples.

Results

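The 9 genes described here control the flow of carbon between glucose and pyruvate in the liver, and all 9 were found by symbol among the 54839 features of the deposited gene table. They are Pck1, G6pc, Fbp1, Pcx and Ppargc1a on the side of gluconeogenesis, and Pklr, Pfkfb1, Pfkfb3 and the glucose transporter Slc2a2 on the side of glycolysis and glucose exchange. The genes are listed by name for their function and were not filtered on a measured value, but the list was chosen with earlier results of these data known. The RNA-seq covered hepatocytes of male p16-Tom mice, in which a tamoxifen-dependent Cre recombinase under the control of p16Ink4a turns on the red fluorescent protein tdTomato. All mice of all groups carried this reporter and received tamoxifen. CCl4, a liver toxin that pericentral hepatocytes activate and that is used to cause fibrosis, was compared with its vehicle, corn oil, and live tdTomato-positive (Tom+) and tdTomato-negative (Tom-) hepatocytes were sorted from collagenase-digested liver. This gave 4 groups of 3 libraries each: Tom- oil, Tom+ oil, Tom- CCl4 and Tom+ CCl4. The mark shows that p16Ink4a was active in a cell when tamoxifen was given and is kept afterwards. The labels do not give the age of the mice or say whether libraries with the same number come from the same mouse, so p-values measure the spread between these libraries. The question put to these genes was whether their level differed between oil and CCl4 and between the Tom+ and Tom- fractions.

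The liver makes glucose during fasting and takes it up and breaks it down after a meal. In gluconeogenesis, pyruvate carboxylase (Pcx) turns pyruvate into oxaloacetate, phosphoenolpyruvate carboxykinase (Pck1) turns oxaloacetate into phosphoenolpyruvate, fructose bisphosphatase (Fbp1) removes a phosphate further up, and glucose-6-phosphatase (G6pc) releases free glucose. Glucagon raises Pck1 and G6pc through cyclic AMP and the coactivator encoded by Ppargc1a, whereas insulin lowers them. In the opposite direction, liver pyruvate kinase (Pklr) carries out the last step of glycolysis, the bifunctional enzymes Pfkfb1 and Pfkfb3 set the level of the sugar phosphate that activates phosphofructokinase, and Slc2a2 encodes GLUT2, through which glucose enters and leaves hepatocytes. Across the liver lobule gluconeogenesis is stronger in periportal (zone 1) hepatocytes and glycolysis in pericentral (zone 3) ones.

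Total counts ranged from 37568584 to 75331424 per library, with a median of 47910752, and levels are given as CPM, read counts scaled to the library size with TMM factors. The reporter transcript went against the label in 2 libraries: it stood at 1793.9 CPM in Tom- oil replicate 1 and at 135.2 CPM in Tom+ oil replicate 2, whereas the other Tom+ libraries held 1225.1 to 1546.2 CPM and the other Tom- libraries 119.7 to 263.1 CPM. Both are called by their labels below, and the main values that use them are also given without them. The CCl4 comparison is also given on the sums of same-numbered Tom+ and Tom- libraries, which do not use the fraction labels. By the reporter, however, both oil libraries numbered 1 were high (1793.9 and 1546.2 CPM) and both numbered 2 were low (156.6 and 135.2 CPM). The sums thus do not remove the doubt about the fraction in oil. Counts were added as they stood, so the deeper library of a pair weighed more. Of the 8 listed hepatocyte markers 7 were found, none of them at 0 in any group. They summed to 94961.2 to 125620.8 CPM in Tom- oil and 111003.1 to 122146.0 CPM in Tom+ oil. After CCl4 the sums were 129683.5 to 142579.0 CPM in Tom- and 101855.6 to 114185.7 CPM in Tom+. A gene was called different at a Benjamini-Hochberg adjusted p under 0.05 over all genes tested together with a log2 fold change beyond 0.75, and counts at the adjusted p alone are given beside it, because several of the 9 genes lie just inside the fold limit. All 9 genes passed the filter on low counts. Where groups are said not to overlap, this describes the library values and is not a test. The share of all genes without overlap was not counted. In bulk libraries fewer cells of a type and less RNA per cell cannot be told apart.

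Promoters of the 9 genes were taken from RefSeq (GRCm38.p6, the assembly of mm10), as 15 windows of 300 bases that run from 250 bases before to 50 after an annotated start. The 3 windows shown belong to the genes on which the results below turn: Pck1, G6pc and Pklr. Pck1 and G6pc had lower CPM in Tom+ than in Tom- hepatocytes after CCl4. G6pc passed the adjusted p but not the fold limit there, and Pck1 passed neither. Pklr was higher after CCl4 past both thresholds. Capitals mark the core of the cyclic AMP response element (TGACGT, on either strand, so that a match on the minus strand is printed as ACGTCA) in Pck1, chr2:173152823-173153122, plus strand, and a match to the carbohydrate response element consensus in the second, downstream window of Pklr, chr3:89136373-89136672, plus strand. No capitals stand in G6pc, chr11:101367466-101367765, plus strand. Each is written 5′ to 3′.
Pck1: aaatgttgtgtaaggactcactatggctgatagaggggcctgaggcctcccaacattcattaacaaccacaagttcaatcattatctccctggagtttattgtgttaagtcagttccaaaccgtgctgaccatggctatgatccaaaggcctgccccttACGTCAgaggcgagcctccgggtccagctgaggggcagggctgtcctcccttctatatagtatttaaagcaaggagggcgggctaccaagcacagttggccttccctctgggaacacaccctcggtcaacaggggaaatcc
G6pc: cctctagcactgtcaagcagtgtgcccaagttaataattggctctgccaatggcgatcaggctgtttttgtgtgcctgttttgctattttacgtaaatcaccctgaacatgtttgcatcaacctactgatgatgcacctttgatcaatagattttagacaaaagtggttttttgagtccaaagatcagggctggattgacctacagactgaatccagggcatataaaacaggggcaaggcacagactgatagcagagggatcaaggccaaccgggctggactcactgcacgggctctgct
Pklr: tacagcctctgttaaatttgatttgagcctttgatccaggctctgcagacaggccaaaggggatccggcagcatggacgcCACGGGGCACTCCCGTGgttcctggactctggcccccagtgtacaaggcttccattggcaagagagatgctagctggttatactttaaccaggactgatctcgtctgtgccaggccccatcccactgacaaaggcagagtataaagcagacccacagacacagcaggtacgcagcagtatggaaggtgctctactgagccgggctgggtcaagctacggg

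The cyclic AMP response element core was found in 1 window each of 3 of the 9 genes, Pck1, Ppargc1a and Pfkfb3, and in 7.51% of all 32851 mouse promoters of the same length. In Pck1 its first base lay 91 bases before the start. The E-box CACGTG stood in 1 window of Pcx and 1 of Pfkfb3 (7.15% of all promoters), and the letters of the FOXO core TGTTTAC or its reverse complement stood in none of the 15 windows (3.65% of all promoters). The carbohydrate response element, the site at which the glucose-sensing factor encoded by Mlxipl binds and which holds a pair of E-box-like motifs, was searched for after the sequences had been seen. Of the 9 genes it was matched in Pklr, starting 170 bases before the start of the downstream window, and 0.119% of all promoters hold it. The upstream window of Pklr, with no match, lies before the start used in red blood cell precursors, and the counts do not tell the transcripts from both starts apart. A match describes the letters and is not a measurement of binding.

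Per length, Pck1 and Fbp1 were the most abundant of the 9 transcripts and the coactivator and the bifunctional kinases the least. Mean TPM (length-normalized transcript share) of Pck1 were 2699.6 ± 196.8 in Tom- oil, 2383.2 ± 516.6 in Tom+ oil, 1993.8 ± 240.2 in Tom- CCl4 and 1602.3 ± 255.0 in Tom+ CCl4 (SD, n = 3 each). Fbp1 followed with 1705.8 ± 259.0, 1773.5 ± 266.2, 1286.3 ± 105.5 and 1254.3 ± 120.9 TPM in the same order, and the library ranges of the pair overlapped in both Tom+ groups but not in the Tom- groups. G6pc came next at group means of 411.7 to 580.8 TPM, and Pcx at 259.9 to 300.3 TPM, without overlap between the 2 genes in any group. Slc2a2 and Pklr changed places: in Tom- oil Slc2a2 had 101.2 to 118.6 TPM and Pklr 76.6 to 85.7 TPM, in Tom+ oil their ranges overlapped, and in Tom- CCl4 Pklr had 126.0 to 154.9 TPM against 97.5 to 121.0 TPM of Slc2a2. In Tom+ CCl4 the gap was wider, with 176.0 to 219.7 TPM of Pklr and 118.4 to 143.3 TPM of Slc2a2. Group means were 5.40 to 9.51 TPM for Pfkfb1, 3.30 to 3.48 TPM for Ppargc1a and 1.46 to 3.07 TPM for Pfkfb3.

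**Figure D1:**
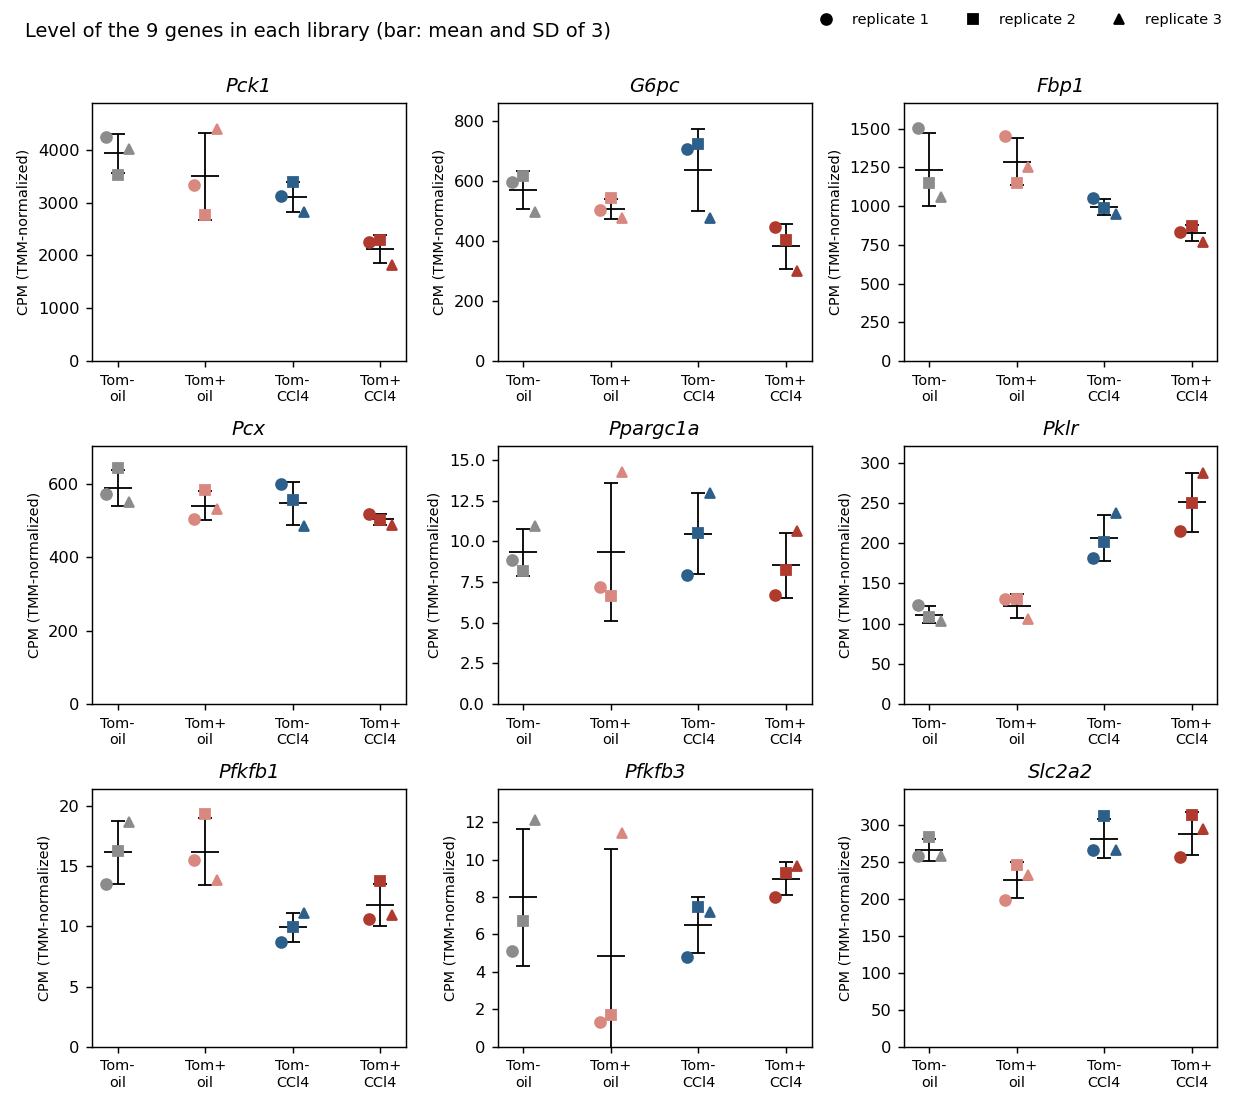
Level of each gene in each of the 12 libraries (vertical axis, TMM-normalized CPM on a linear scale from 0) by group (horizontal axis), with the replicate number as the shape of the point and the mean and SD of 3 libraries as bars. All Pklr values after CCl4 lie above all oil values, the lowest Pck1 and Fbp1 values are those of Tom+ CCl4, and 1 of the 3 Tom+ oil libraries stands far above the other two in Pfkfb3.

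In Tom- hepatocytes 1 of the 9 genes, Pklr, rose after CCl4 and another, Pfkfb1, fell at the adjusted p alone, while none of the 5 gluconeogenic genes passed. Pklr (chr3:89136142-89146784, mm10), the enzyme of the last glycolytic step, had 122.8, 107.9 and 102.6 CPM in the Tom- oil libraries and 181.4, 201.3 and 237.8 CPM in the Tom- CCl4 libraries. The groups did not overlap, and the log2 fold change was 0.90 (SE 0.13, adjusted p = 0.00113 by edgeR's quasi-likelihood test), a level of 186% of oil. Without Tom- oil replicate 1 and Tom+ oil replicate 2 it was 0.98 (SE 0.15, adjusted p = 0.00499 by edgeR). Pfkfb1 (chrX:150588229-150643878), the liver form of the bifunctional kinase, had 13.48, 16.28 and 18.63 CPM in oil and 8.696, 9.98 and 11.07 CPM after CCl4. These groups did not overlap either, with a log2 fold change of -0.70 (SE 0.16, adjusted p = 0.0109 by edgeR), just inside the fold limit. Without both libraries whose reporter went against the label, it was -0.81 (SE 0.15, adjusted p = 0.00953 by edgeR) and past both thresholds, as it was without Tom- oil replicate 1 alone (-0.82) or Tom- CCl4 replicate 3 (-0.79).

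The count of 1 of 9 genes past both thresholds stands beside 7.92% of all genes tested, and 2 of 9 at the adjusted p alone beside 16.1%. Of the gluconeogenic genes, Pck1 (chr2:173153048-173159273) had 4243.9, 3530.7 and 4011.7 CPM in Tom- oil and 3128.7, 3384.8 and 2813.1 CPM in Tom- CCl4, which did not overlap, and its log2 fold change of -0.34 (SE 0.16) did not pass (adjusted p = 0.157 by edgeR). Fbp1 (chr13:62864753-62888282) went from 1057.1 to 1504.1 CPM in oil to 949.6 to 1049.6 CPM after CCl4, again without overlap, at a log2 fold change of -0.31 (SE 0.13, adjusted p = 0.121 by edgeR). G6pc, Pcx, Ppargc1a and Slc2a2 overlapped between the groups, with log2 fold changes of 0.15 (SE 0.17), -0.11 (SE 0.10), 0.17 (SE 0.29) and 0.08 (SE 0.11). Stellate and endothelial cell markers were higher in the same Tom- comparison, with 7 of 8 genes of each list called. They summed to 69.5 to 92.7 CPM (stellate) and 273.7 to 294.3 CPM (endothelial) in Tom- CCl4 against 8.84 to 16.9 and 112.6 to 169.9 CPM in Tom- oil, with no gene of either list at 0, and the part of such cells in the values above was not tested.

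In Tom+ hepatocytes Pklr rose after CCl4, and Pck1 and Fbp1 fell at the adjusted p alone. The Tom+ oil libraries held 130.7, 130.9 and 105.2 CPM of Pklr and the Tom+ CCl4 libraries 214.8, 250.4 and 287.9 CPM. The log2 fold change was 1.04 (SE 0.13, adjusted p = 4.3e-04 by edgeR), 205% of the level in oil, with no overlap, and 1.09 (SE 0.15, adjusted p = 0.00258 by edgeR) without the 2 oil libraries whose reporter went against the label. Pck1, the enzyme that commits oxaloacetate to gluconeogenesis, had 3340.7, 2768.3 and 4390.3 CPM in Tom+ oil and 2249.1, 2294.2 and 1816.4 CPM in Tom+ CCl4. All CCl4 libraries lay below all oil libraries, at 60.6% of the oil level and a log2 fold change of -0.72 (SE 0.16, adjusted p = 0.0116 by edgeR). It was past both thresholds without those 2 oil libraries, at -0.86 (SE 0.15, adjusted p = 0.00855 by edgeR), and without Tom+ oil replicate 1 (-0.76) or 2 (-0.87) or Tom+ CCl4 replicate 1 (-0.77) or 2 (-0.78). It missed the adjusted p without Tom+ CCl4 replicate 3, at -0.62 (SE 0.17, adjusted p = 0.0597 by edgeR).

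Fbp1 had 1453.7, 1152.0 and 1254.2 CPM in Tom+ oil and 835.5, 870.1 and 769.8 CPM in Tom+ CCl4, without overlap. This is 64.1% of the oil level (log2 fold change -0.64, SE 0.13, adjusted p = 0.00847 by edgeR), and without the same 2 libraries the value was -0.71 (SE 0.11, adjusted p = 0.00375 by edgeR). The 1 of 9 genes past both thresholds stands beside 5.24% of all genes, and the 3 of 9 at the adjusted p alone beside 9.47%. G6pc, Pfkfb1 and Slc2a2 did not pass, although their CPM did not overlap between the Tom+ groups. In TPM the groups of G6pc and Pfkfb1 did overlap. G6pc (chr11:101367561-101377903) had 476.1 to 543.5 CPM in oil and 299.4 to 446.4 CPM after CCl4 (log2 fold change -0.41, SE 0.17, adjusted p = 0.153 by edgeR). Pfkfb1 had 13.83 to 19.31 CPM and 10.62 to 13.75 CPM (-0.47, SE 0.16, adjusted p = 0.0855). Slc2a2 (chr3:28697903-28731359), the glucose transporter, was the one that leaned upward, from 198.1 to 246.0 CPM in oil to 256.8 to 313.7 CPM after CCl4 (0.36, SE 0.11, adjusted p = 0.0573). Pcx (chr19:4510472-4621752) had 505.9 to 585.5 CPM in Tom+ oil and 489.8 to 519.4 CPM in Tom+ CCl4, which overlapped.

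**Figure D2:**
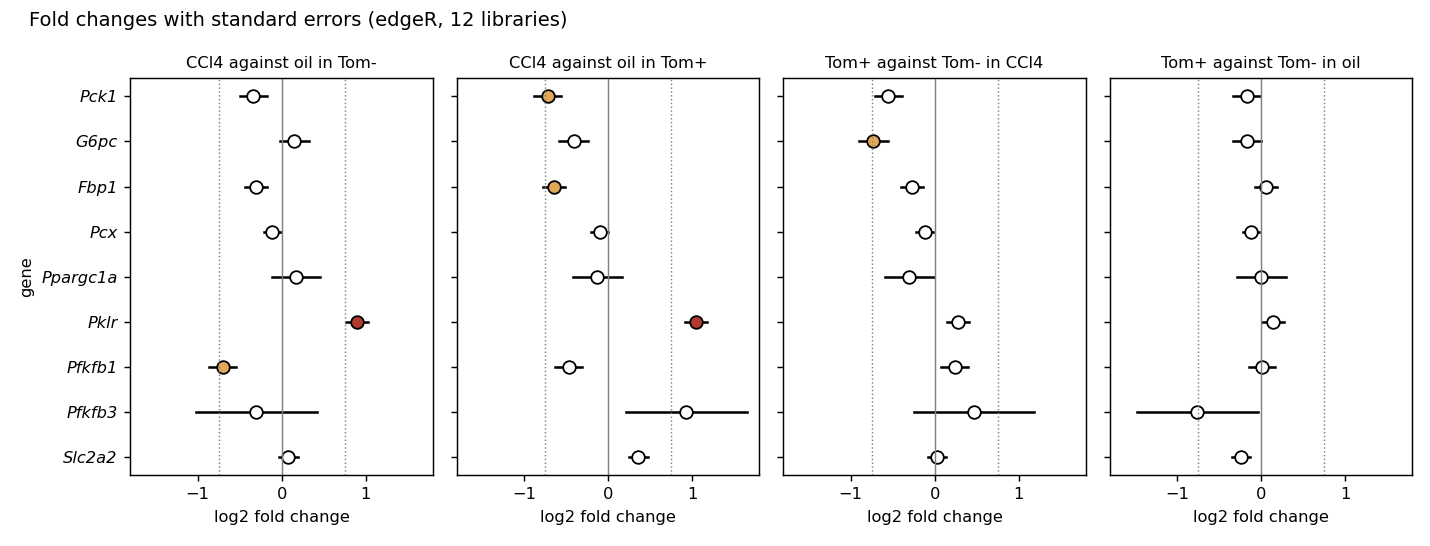
Log2 fold changes (horizontal axis) with 1 standard error to each side for the 9 genes (vertical axis) in 4 comparisons, fitted over 12 libraries. Red points passed both thresholds (Pklr after CCl4 in both fractions), orange points the adjusted p alone, and dotted lines mark a log2 fold change of 0.75 in either direction.

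Zone markers differed in the same Tom+ comparison. Of 10 zone 1 markers 8 were lower in Tom+ CCl4 than in Tom+ oil, with sums of 6713.5 to 8640.3 CPM against 14179.2 to 18002.9 CPM, and of 10 zone 3 markers 6 were higher, with sums of 3207.1 to 4318.5 CPM against 769.5 to 2513.3 CPM. In Tom- hepatocytes 0 of the 10 zone 1 markers passed both thresholds, with sums of 9417.1 to 12477.1 CPM after CCl4 and 12644.8 to 16519.5 CPM in oil. Stellate cell markers were higher as well, 6 of 8 being called in Tom+, with sums of 50.4 to 103.2 CPM after CCl4 and 10.4 to 24.4 CPM in oil. No zone or stellate marker was at 0 in any group, and the part of either in the levels of Pck1, Fbp1, G6pc and Pklr was not tested.

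On the sums of same-numbered Tom+ and Tom- libraries, which leave the fraction labels aside, Pklr rose after CCl4, and Pck1, Fbp1 and Pfkfb1 fell at the adjusted p alone. Pklr had 128.3, 121.0 and 104.4 CPM in the oil sums and 205.7, 228.4 and 262.8 CPM in the CCl4 sums (log2 fold change 0.98, SE 0.12, adjusted p = 0.00296 by edgeR). Pck1 had 3672.0, 3187.1 and 4210.7 CPM against 2560.1, 2772.0 and 2310.1 CPM, at a log2 fold change of -0.53 (SE 0.13, adjusted p = 0.0377 by edgeR). Fbp1 stood at -0.49 (SE 0.12, adjusted p = 0.0353) and Pfkfb1 at -0.58 (SE 0.11, adjusted p = 0.0174 by edgeR). None of these 4 genes overlapped between the sums, and the share of all genes without overlap was not counted. G6pc had 387.8 to 543.2 CPM after CCl4 and 491.6 to 588.1 CPM in oil, which overlapped. The share past both thresholds was 1 of 9 genes against 4.78% of all genes tested on the sums, and at the adjusted p alone 4 of 9 genes against 8.18%. The values of Pck1 and Fbp1 did not pass when any of several single sums was left out. For Pck1 these were oil replicate 1 or 3 or any of the 3 CCl4 sums, and for Fbp1 oil replicate 1 or 2 or any of the 3 CCl4 sums, with adjusted p-values of 0.0635 to 0.106. Pfkfb1 did not pass without oil replicate 2 (adjusted p = 0.0609 by edgeR). On the same sums 5 of 10 zone 1 markers were lower and 7 of 8 stellate cell markers higher, and their part in these values was not tested.

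After CCl4, Tom+ hepatocytes held less G6pc than Tom- hepatocytes. G6pc, which releases free glucose, had 706.0, 722.9 and 477.9 CPM in Tom- CCl4 replicates 1 to 3 and 446.4, 402.5 and 299.4 CPM in Tom+ CCl4 replicates 1 to 3. It was lower in Tom+ in 3 of 3 same-numbered pairs, at ratios of 0.632, 0.557 and 0.626, and the groups did not overlap in CPM. In TPM, which takes no TMM factor, they did overlap, with 417.4 to 667.3 in Tom- and 306.2 to 490.5 in Tom+. The log2 fold change was -0.73 (SE 0.17, adjusted p = 0.0253 by edgeR), which passed the adjusted p alone. With the replicate number as a block it was -0.73 (SE 0.07, adjusted p = 3.0e-05 by edgeR). Without the block it missed the adjusted p when Tom- CCl4 replicate 1 (0.0748) or 2 (0.124) or Tom+ CCl4 replicate 2 (0.0825) or 3 (0.0671) was left out, the log2 fold change then being -0.77 to -0.58, and in a fit of the 6 CCl4 libraries alone (adjusted p = 0.0693 by edgeR). It passed both thresholds without Tom- CCl4 replicate 3 (-0.90, adjusted p = 0.00905) or Tom+ CCl4 replicate 1 (-0.86, adjusted p = 0.0364). This comparison and that of CCl4 with oil in each fraction share libraries, so their values are not independent.

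Pck1 and Fbp1 lay on the same side. Pck1 was lower in Tom+ in 3 of 3 pairs, at ratios of 0.719, 0.678 and 0.646. Its CPM did not overlap between the groups, and its TPM did (1729.8 to 2199.7 in Tom- and 1308.0 to 1759.0 in Tom+). Its log2 fold change of -0.55 (SE 0.16) just missed the threshold (adjusted p = 0.0548 by edgeR), while the block gave -0.56 (SE 0.09, adjusted p = 0.00107). Fbp1 had ratios of 0.796, 0.879 and 0.811, a log2 fold change of -0.27 (SE 0.13, adjusted p = 0.235) and with the block -0.27 (SE 0.07, adjusted p = 0.0202 by edgeR). In CPM the groups of Fbp1 did not overlap, and in TPM they did (1176.4 to 1386.8 in Tom- and 1116.9 to 1344.1 in Tom+). Pklr pointed the other way in 3 of 3 pairs, with ratios of 1.18, 1.24 and 1.21. Its groups overlapped in CPM but not in TPM (126.0 to 154.9 in Tom- and 176.0 to 219.7 in Tom+). Its log2 fold change was 0.28 (SE 0.13, adjusted p = 0.229), and with the block 0.28 (SE 0.07, adjusted p = 0.0121 by edgeR). No gene of the 9 passed both thresholds in this comparison, beside 1.96% of all genes, and 1 of 9 passed the adjusted p alone, beside 5.79%. With the block these were 0 of 9 genes, beside 3.98%, and 4 of 9, beside 17.7%.

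The remaining genes did not pass between the fractions after CCl4, with or without the block. Pcx had 600.8, 557.5 and 485.0 CPM in Tom- and 519.4, 503.6 and 489.8 CPM in Tom+ (log2 fold change -0.12, SE 0.10). Slc2a2 had ratios of 0.964 to 1.11 (0.03, SE 0.11) and Pfkfb1 of 1.22, 1.38 and 0.984 (0.24, SE 0.16). Scaling by the total count in place of TMM moved the median of all genes in this comparison by 0.15 on the log2 scale. G6pc then stood at -0.58 (adjusted p = 0.042), Pck1 at -0.40 (adjusted p = 0.0965), Fbp1 at -0.12 (adjusted p = 0.589) and Pklr at 0.42 (adjusted p = 0.047 by edgeR), and Pcx turned to 0.03. Zone 1 markers moved with this comparison, 4 of 10 being lower in Tom+ (sums of 6713.5 to 8640.3 CPM against 9417.1 to 12477.1 CPM). The zone 3 sums were 3207.1 to 4318.5 CPM in Tom+ and 1381.9 to 2324.0 CPM in Tom-, with 0 of 10 called and 7 of 10 with the block. Endothelial markers were also lower in Tom+ (4 of 8 called, 142.4 to 192.7 CPM against 273.7 to 294.3 CPM, and 1 of 8 called with total-count scaling, under which the zone 1 count was again 4). The hepatocyte marker sum was 101855.6 to 114185.7 CPM in Tom+ and 129683.5 to 142579.0 CPM in Tom-, with 0 of 7 called and a median log2 fold change of -0.14. The part of any of these in the differences of G6pc, Pck1 and Fbp1 was not tested.

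**Figure D3:**
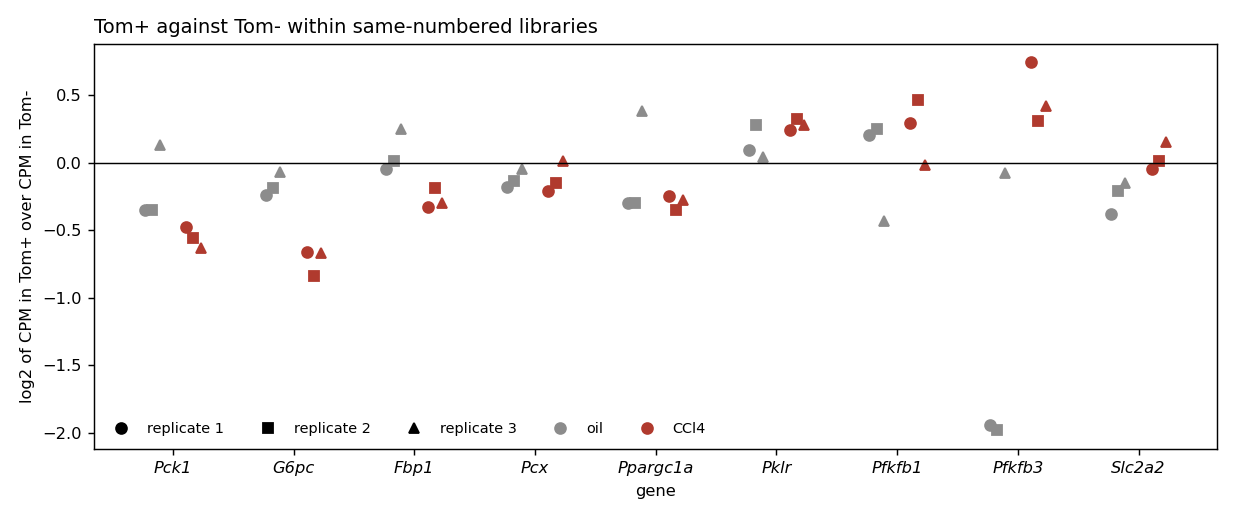
Log2 of the CPM in Tom+ over the CPM in Tom- (vertical axis) within each same-numbered pair of libraries for the 9 genes (horizontal axis), in oil (grey) and after CCl4 (red), with the replicate number as the shape. All 3 CCl4 pairs of Pck1, G6pc and Fbp1 lie below 0 and all 3 of Pklr and Pfkfb3 above it, and oil pairs 1 and 2 of Pfkfb3 lie far below its other pairs.

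In oil none of the 9 genes passed the adjusted p between the fractions, alone or with the fold limit, and neither did any other gene (0% and 0% of 17121 genes by edgeR, with 1198 genes at an unadjusted p under 0.05 and 15 genes past both thresholds by DESeq2). The block fit called 40 genes of all tested, none of them among the 9. Slc2a2 did not overlap, with 257.6, 284.1 and 257.9 CPM in Tom- oil and 198.1, 246.0 and 231.8 CPM in Tom+ oil, at a log2 fold change of -0.24 (SE 0.11, adjusted p = 0.698 by edgeR). G6pc had ratios of 0.844, 0.879 and 0.955 in the oil pairs and Pck1 of 0.787, 0.784 and 1.09. Since 2 of these 6 libraries carry a reporter level against their label, the fractions are least certain here. Without both, Pck1 stood at 0.02 (SE 0.17), G6pc at -0.20 (SE 0.22) and Slc2a2 at -0.35 (SE 0.13, adjusted p = 0.681 by edgeR).

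The difference between both fraction contrasts (the interaction) passed the adjusted p for none of the 9 genes, alone or with the fold limit, beside 1.17% of all genes past both thresholds and 1.55% at the adjusted p alone. For G6pc it was -0.56 (SE 0.24, adjusted p = 0.228), for Pck1 -0.39 (SE 0.22, adjusted p = 0.372) and for Fbp1 -0.33 (SE 0.18, adjusted p = 0.361 by edgeR). With the block, G6pc (-0.56, SE 0.10, adjusted p = 0.00278) and Fbp1 (-0.34, SE 0.10, adjusted p = 0.0452) passed the adjusted p alone and Pck1 did not (-0.37, SE 0.13, adjusted p = 0.0728 by edgeR), beside 12.5% of all genes. Without the 2 oil libraries whose reporter went against the label, it was -0.54 for G6pc (SE 0.29, adjusted p = 0.461), -0.59 for Pck1 (SE 0.22, adjusted p = 0.256) and -0.57 for Fbp1 (SE 0.15, adjusted p = 0.127 by edgeR). For G6pc the interaction thus passed the adjusted p with the block and not without it. The block compares same-numbered libraries. By the reporter, both oil libraries numbered 1 were high (1793.9 and 1546.2 CPM) and both numbered 2 low (156.6 and 135.2 CPM). The blocked oil value is therefore uncertain as a difference between fractions.

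Pfkfb3 and Ppargc1a were both of low level, and the value of Pfkfb3 depended on single libraries. Pfkfb3 (chr2:11471433-11554077), the bifunctional kinase form that many non-liver cells use, had 1.343, 1.699 and 11.43 CPM in Tom+ oil, from 93, 89 and 467 reads, and 5.142, 6.724 and 12.12 CPM in Tom- oil. After CCl4 it had 8.001, 9.279 and 9.686 CPM in Tom+ and 4.778, 7.492 and 7.224 CPM in Tom-. With all libraries its log2 fold change of CCl4 against oil in Tom+ was 0.93 (SE 0.72, adjusted p = 0.489). Without Tom+ oil replicate 3 it was 2.57 (SE 0.35, adjusted p = 0.00124 by edgeR), Tom+ against Tom- in oil was -2.40 (SE 0.35, adjusted p = 0.0221), and the interaction was 2.87 (SE 0.44, adjusted p = 0.00883). Whether Pfkfb3 passed thus depended on 1 library.

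Ppargc1a (chr5:51454250-51567726), the fasting-induced coactivator, had 8.861, 8.177 and 10.97 CPM in Tom- oil and 7.208, 6.642 and 14.25 CPM in Tom+ oil, and 7.963 to 12.97 CPM in Tom- CCl4 and 6.684 to 10.67 CPM in Tom+ CCl4, so that all groups overlapped. The 2 oil libraries of replicate 3 were thus the highest in oil for both genes, and they were also the highest in oil for the Kupffer cell and macrophage markers, which summed to 82.7 and 122.6 CPM there and to 15.8 to 29.5 CPM in the other oil libraries, with none of the 8 markers at 0. After CCl4 this sum was 52.5 to 141.6 CPM. With both oil libraries numbered 3 left out, a choice made after the data were seen, Ppargc1a stood at 0.30 (SE 0.22) after CCl4 in both fractions, with adjusted p-values of 0.379 in Tom- and 0.421 in Tom+ by edgeR, beside 0.17 (SE 0.29) and -0.13 (SE 0.29) with all libraries. Whether macrophage RNA contributed to Pfkfb3 or Ppargc1a was not tested.

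Other genes of glucose metabolism were counted by list, and a gene may stand in more than 1 list. Over all genes tested, 7.92% were called after CCl4 in Tom-, 5.24% in Tom+ and 1.96% between the fractions after CCl4. The counts of each list stand beside these shares. Of the other glycolysis enzymes 24 were tested: after CCl4 in Tom-, 4 were higher and 1 lower (median log2 fold change 0.30, beside 0 over all genes), and in Tom+ 2 were higher and 0 lower (median 0.29). In Tom- these were Hk1 (1.59, SE 0.33), the hexokinase of most tissues, the muscle enolase Eno3 (1.29, SE 0.25), Pkm (1.31, SE 0.28), the pyruvate kinase of non-liver cells, Gpi1 (0.79, SE 0.21), which interconverts glucose and fructose phosphates, and the aldolase Aldoc (-0.95, SE 0.16). Hk1, Eno3 and Pkm were of low level, with means of 0.911, 1.84 and 4.95 CPM in Tom- oil and 2.76, 4.49 and 12.3 CPM in Tom- CCl4. In the same comparison 7 of 8 stellate and 7 of 8 endothelial markers were higher, and the macrophage marker sum was 15.8 to 82.7 CPM in oil and 99.5 to 126.1 CPM after CCl4 with 0 of 8 called, and the part of such cells in these 3 genes was not tested. In Tom+ they included Gpi1 (0.84, SE 0.21). Without the 2 oil libraries whose reporter went against the label the counts of higher genes were 2 in Tom- and 1 in Tom+. Between Tom+ and Tom- after CCl4, 0 of the 24 were called.

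Of 22 tested genes for the other steps of gluconeogenesis and for pyruvate handling, 1 was higher and 1 lower after CCl4 in Tom-, and 1 was higher and 3 lower in Tom+. The shares called over all genes were 7.92% in Tom- and 5.24% in Tom+. Pck2, the mitochondrial form of the enzyme that Pck1 encodes, went against Pck1, at 1.70 (SE 0.37, adjusted p = 0.00955) in Tom- and 1.78 (SE 0.37, adjusted p = 0.0104 by edgeR) in Tom+. Pck2 was of low level, with means of 2.15 CPM in Tom- oil and 1.97 CPM in Tom+ oil. After CCl4 its means were 6.98 CPM in Tom- and 6.84 CPM in Tom+. The lower genes act on amino acids that feed gluconeogenesis: the aspartate aminotransferase Got1 (-0.83, SE 0.23 in Tom- and -1.47, SE 0.23 in Tom+), the alanine aminotransferase Gpt (-0.90, SE 0.16 in Tom+) and the serine dehydratase Sds (-1.93, SE 0.21 in Tom+), which is also among the zone 1 markers. Without the 2 oil libraries named above Got1 no longer passed in Tom- (-0.71, SE 0.26, adjusted p = 0.13 by edgeR), and the counts in Tom+ were again 1 higher and 3 lower. Sds was the 1 gene of this list past both thresholds between Tom+ and Tom- after CCl4 (-1.39, SE 0.21, adjusted p = 0.00625 by edgeR). Slc37a4, the transporter that hands glucose phosphate to G6pc, was lower in Tom+ at the adjusted p alone (-0.64, SE 0.10, adjusted p = 0.00544). The list did not go 1 way in this comparison. At the adjusted p alone 3 of its 22 genes were higher and 2 lower in Tom+, beside 5.79% of all genes. Its median log2 fold change was 0.14.

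Of 14 genes known to rise with insulin and sugar, 6 were higher after CCl4 in Tom- and 4 in Tom+, and none was lower (median log2 fold change 0.63 and 0.52). Of all genes tested 6.33% were called higher in Tom- and 2.9% in Tom+. On the sums of same-numbered libraries 3 of the 14 were higher. In Tom- the leading 5 were the lipid droplet protein gene Pnpla3 (3.79, SE 0.46), Scd1 (1.78, SE 0.33) and Elovl6 (1.43, SE 0.28), which desaturate and lengthen fatty acids, Mlxipl (1.12, SE 0.19), which encodes the glucose-sensing factor ChREBP, and the fatty acid synthase Fasn (0.96, SE 0.16). Those called in Tom+ included Pnpla3 (1.86, SE 0.41), Scd1 (1.44, SE 0.33) and Elovl6 (1.12, SE 0.28). The summed level of the list was 5790.7 to 6731.9 CPM in Tom- oil, 5682.4 to 9486.6 CPM in Tom+ oil, 12480.6 to 22277.4 CPM in Tom- CCl4 and 12593.5 to 20704.9 CPM in Tom+ CCl4. Most of this sum was Scd1 alone, with 3512.8 ± 448.7 CPM in Tom- oil and 12074.5 ± 4763.9 CPM in Tom- CCl4 (SD, n = 3). Without the 2 oil libraries named above 6 and 5 genes were higher. Of 12 genes known to rise in fasting, 0 were higher and 1 lower in Tom- (Cyp4a14, -1.08, SE 0.32, adjusted p = 0.0486 by edgeR, a call lost without any 1 of the 6 libraries compared, and at -1.19 with an adjusted p of 0.0703 without the 2 oil libraries with a doubted reporter), and 0 were called in Tom+.

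Of 27 genes for hormone signals and transcription control, 1 was higher and 1 lower after CCl4 in Tom-, Mlxipl and the insulin signal inhibitor Trib3 (-1.26, SE 0.31), and 1 was lower in Tom+, the coactivator gene Ppargc1b (-1.24, SE 0.29). These counts, and those of the glycogen and sugar lists below, stand beside 7.92% of all genes in Tom- and 5.24% in Tom+. Without the 2 oil libraries named above Trib3 missed the threshold in Tom- (-1.17, SE 0.36, adjusted p = 0.0689 by edgeR). Between the fractions after CCl4, Ppara, the receptor that drives fasting fat oxidation, was higher in Tom+ (0.80, SE 0.16, adjusted p = 0.0133) and Mlxipl lower (-0.91, SE 0.19, adjusted p = 0.0182 by edgeR). Mlxipl had 521.4 ± 135.7 CPM in Tom- CCl4 and 278.1 ± 18.9 CPM in Tom+ CCl4 (SD, n = 3), beside 206.8 ± 28.6 and 251.0 ± 36.6 CPM of Pklr in the same groups. The glucagon receptor gene Gcgr (-0.64, SE 0.11) and Gckr (-0.73, SE 0.12) were lower in Tom+ at the adjusted p alone. In this list of 27 genes 2 were higher and 4 lower in Tom+ at the adjusted p alone, beside 5.79% of all genes. Of 13 glycogen genes 1 was higher in both fractions after CCl4, Pgm2 (0.78, SE 0.18 in Tom- and 0.76, SE 0.18 in Tom+), and 1 was lower in Tom+, Ppp1r3c (-1.29, SE 0.28), a targeting subunit for glycogen synthesis. Pgm2 lay at the fold limit: it did not pass both thresholds in Tom+ without the 2 oil libraries (0.74, adjusted p = 0.0806), in Tom- with total-count scaling (0.73, adjusted p = 0.0164) or on the sums (0.74, adjusted p = 0.022 by edgeR). Of 11 genes for fructose and other sugars, 0 were called in Tom-, and in Tom+ Sord (0.82, SE 0.12) was higher and the fructose transporter Slc2a5 (-1.15, SE 0.23) lower, with the same counts without the 2 oil libraries.

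**Figure D4:**
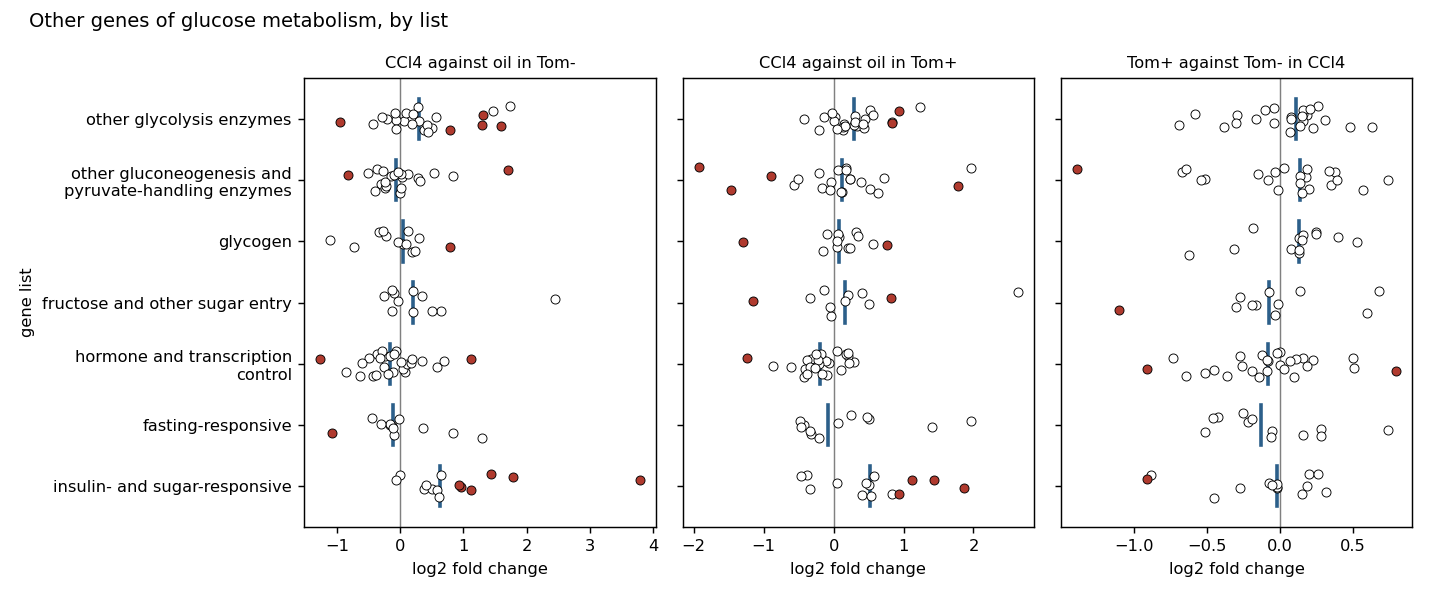
Log2 fold changes (horizontal axis, with its own range in each panel) of the other genes of glucose metabolism by list (vertical axis) in 3 comparisons, where each point is a gene, red points passed both thresholds and the blue line is the median of the list. The insulin- and sugar-responsive list has its median at 0.63 and 0.52 after CCl4 and at -0.02 between the fractions.

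The genes whose pattern over the 12 libraries was most like that of Pklr, the 1 gene of the 9 past both thresholds, were Rnf145, Dapk2 and Tpm1. Their root mean square difference from Pklr in centred log2 CPM was 0.15, 0.16 and 0.17, against a standard deviation of 0.52 of Pklr itself, among 9662 genes with a mean of at least 5 CPM.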

How the data were processed

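The 12 libraries were grouped by the labels. Per the labels, the authors ran fastp (v0.23.2), HISAT2 (v2.1.0) on mm10, and DESeq2 (v1.42.1). The program that counted reads is not given in the sources used here. The authors deposited expected counts per gene without normalization, and 30.4% to 32.9% of the non-zero entries in each library are fractions. The design had taken them for whole counts, so they were rounded first. Entries were fractions in 9 of the 12 libraries for Pklr and in 7 for Pck1. Symbols were given for 54723 of 54839 features (99.8%), and positions are those of the deposited table. A count of 3 corresponds to 0.0398 to 0.0799 CPM.

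Tests used edgeR (v4.0.16, under R v4.3.3) with TMM factors, filterByExpr (17121 genes kept, 17743 on sums) and the robust quasi-likelihood test, with 1 coefficient per group over 12 libraries. The fold and p thresholds follow the study's methods. Each SE of an edgeR fold change was derived from the test, as the absolute log2 fold change over the square root of its F statistic. TPM was computed from the rounded counts and the deposited lengths. The scripts were tested on simulated data. Figures were drawn with matplotlib (v3.10.9) in Python (v3.11.15).

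Tom+ and Tom- libraries with the same number in the labels deviated together: over 9662 genes the 6 same-numbered correlations within a treatment were 0.372 to 0.693, and those of different numbers -0.526 to -0.052. The numbers were therefore used as a block in an alternative fit of Tom+ against Tom- and of the interaction. The main fits of both use no block and do not treat the libraries as pairs. Between CCl4 and oil the same-numbered correlations were 0.019 to 0.309 and were not treated as pairs.

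The members and gene lists were chosen with earlier results of these data known. All 9 members are named whatever their values. Of the other lists, genes past both thresholds are named, at most 5 a list and comparison by size of change, and Slc37a4, Gcgr and Gckr, at the adjusted p alone, were chosen after their values were seen. A gene of these lists is counted but not reported here by name. Alternatives were DESeq2 (v1.42.0), RLE normalization, other filters on low counts, a fit of the 6 libraries compared, the block, and leaving out libraries. Total-count scaling and leaving out both oil libraries numbered 3 were chosen after seeing the data. Cholangiocyte markers summed to 5.25 to 18.0 CPM and lymphocyte and neutrophil markers to 0.426 to 4.75 CPM.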

Additional observations from a re-analysis of the deposited data

Results flagged for a closer look

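For 3 genes of the lists the Tom+ against Tom- difference itself differed between CCl4 and oil past both thresholds by edgeR's interaction test. Sds, the serine dehydratase, had an interaction of -1.58 (SE 0.29, adjusted p = 0.0276): its mean was 254.0 CPM in Tom- CCl4 and 96.8 CPM in Tom+ CCl4, against 325.5 and 369.9 CPM in oil. Sord, sorbitol dehydrogenase, had 0.95 (SE 0.16, adjusted p = 0.0172), with 1066.5 and 1618.3 CPM after CCl4 and 1169.3 and 918.8 CPM in oil. Gckr had -0.85 (SE 0.17, adjusted p = 0.0341), with 276.5 and 166.3 CPM after CCl4 and 171.4 and 185.2 CPM in oil. Without the 2 oil libraries whose reporter went against the label, Sds stood at -1.82 (adjusted p = 0.0317), Sord at 0.93 (adjusted p = 0.0504) and Gckr at -0.75 (adjusted p = 0.117 by edgeR), so the latter 2 no longer passed. These counts come from the fit without the replicate block, in which 1.17% of all genes tested passed, beside 5.48% with the block. With the block more genes passed: 1 higher and 3 lower of the hormone and transcription list, 0 and 3 of the insulin and sugar list, 2 and 0 of the fasting list, 1 and 1 each of the fructose list and of the other gluconeogenesis list, 0 and 1 of the other glycolysis enzymes and 0 of the glycogen list, where a gene may stand in more than 1 list. Groups of 3 libraries are too small for a test of single outlying samples.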

How the results depend on the processing

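Over 54 fold changes of the 9 genes and 1107 alternative values, 1060 kept their direction and their side of the thresholds. Another 26 came to be called and 21 reversed, and the reversed ones had not passed before. Of the 26, those of Pfkfb3 had not passed the adjusted p in the main fit. Those of Pck1, Fbp1, G6pc and Pfkfb1 had already passed it, and were gained where the fold limit was crossed or dropped. Pklr after CCl4 passed both thresholds under each of 21 alternatives in either fraction, at log2 fold changes of 0.78 to 0.98 in Tom- and 0.93 to 1.13 in Tom+. The number of the 9 genes called was 2 in Tom- and 2 in Tom+ without both oil libraries whose reporter went against the label. Of all genes tested 5.46% and 3.5% were called in that fit. With total-count scaling it was 2 of the 9 in Tom-, beside 1016 higher and 332 lower genes of all tested. At the adjusted p alone the number was 2 in Tom- (16.1% of all genes) and 3 in Tom+ (9.47%). It was 1 for Tom+ against Tom- after CCl4 (5.79%) and 4 on the sums (8.18%). Without both oil libraries numbered 3 the number was 2 in Tom+ and 2 on the sums. It was 1 for the fractions in oil and 1 for the interaction, and Pfkfb3 was gained each time. In oil 66 of all genes were then called, and the shares for the other comparisons are not given here. Leaving out 1 library gave 1 to 2 of the 9 genes in Tom-, 1 to 2 in Tom+ and 1 to 2 on the sums. It gave 0 to 1 for each of the fraction contrasts and the interaction. The cause was not tested.

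Reversed values without both oil libraries numbered 3 were 0.13 for Pfkfb3 in Tom-, 0.30 for Ppargc1a in Tom+ and -0.02 for Fbp1 between the fractions in oil. Without the oil libraries whose reporter went against the label, the oil fraction values were 0.02 for Pck1 and -0.26 for Pfkfb1, and total-count scaling gave 0.03 for Pcx after CCl4. Leaving out 1 library spanned 0 for Ppargc1a in Tom- (-0.02 to 0.33), in Tom+ (-0.32 to 0.30), in the interaction (-0.49 to 0.13) and on the sums (-0.18 to 0.29). It also did for Pfkfb3 in Tom- (-0.54 to 0.13) and on the sums (-0.01 to 1.19), for Slc2a2 between the fractions after CCl4 (-0.03 to 0.12), and in oil for Fbp1 (-0.04 to 0.22) and Pfkfb1 (-0.14 to 0.12).

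Over all genes, the numbers called when 1 library was left out were 902 to 1404 in Tom- (1356 with all), 482 to 933 in Tom+ (897), 77 to 352 for the fractions after CCl4 (336), 0 to 26 in oil (0), 42 to 253 for the interaction (201) and 363 to 1017 on the sums (848). The lowest were without Tom- CCl4 replicate 3, Tom+ CCl4 replicate 3, Tom- CCl4 replicate 2, Tom- oil replicate 1, Tom+ CCl4 replicate 2 and oil sum 1. The adjusted p alone gave 2761, 1622, 992, 0, 265 and 1452 in the same order, and DESeq2 called 15 in oil, 66 higher and 493 lower between the fractions after CCl4 (38 and 298 by edgeR), 109 and 478 for the interaction (37 and 164) and 913 and 382 on the sums (592 and 256). Without both oil libraries numbered 3, 66 were called in oil. Total-count scaling moved the share of higher genes among those called from 11.3% to 40.6% for the fractions after CCl4, from 18.4% to 50.4% for the interaction and from 55.4% to 65.7% in Tom+.

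With the replicate block, 682 genes were called between the fractions after CCl4, 40 in oil and 938 for the interaction. Between CCl4 and oil, where the numbers share only a label, the block left 1 of the 9 genes past both thresholds in either fraction. This stands beside 9.89% of all genes in Tom- and 6.54% in Tom+. At the adjusted p alone 6 of 9 passed in Tom+, beside 14.4% of all genes. Those added were G6pc at -0.43 (adjusted p = 0.0146), Pfkfb1 at -0.47 (0.0346) and Slc2a2 at 0.36 (0.00918 by edgeR). Leaving out the libraries with a doubted reporter was not run on the sums, which do not use the fraction labels.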
